A study of Homo sapiens with 8 samples.

Results

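HLA class I molecules display peptides from inside the cell on its surface. The 9 genes described here encode 4 of their heavy chains (HLA-B, HLA-C, HLA-E and HLA-F), the light chain (B2M), both subunits of the peptide transporter (TAP1 and TAP2), tapasin (TAPBP) and the class I transactivator NLRC5. They were selected by gene name from the 58735 genes of the deposited table, after earlier results of the same comparison had been seen. The difference between the groups therefore belongs to how the genes were chosen, and it is given as a description. Calls from the fit across all genes are counted beside their background and support nothing about these 9 genes. All 9 genes passed the filter on low values (4 or more of the 8 libraries at an FPKM of 1 or above), as did 13436 genes in all. FPKM is a level of fragments scaled to gene length and library size.

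Poly(A)-selected RNA was sequenced from the established prostate cancer line PC3. The labels call 4 libraries siCtrl (genotype label WT) and 4 siPRMT7 (genotype label PRMT7 knockdown). Every library came from cells transfected by lipofection with synthetic RNA and harvested 48 h later, so the controls carried transfected RNA too. The labels spell the groups with si in the titles but with sh in the library names, and nothing in them settles which is meant. The labels do not say whether replicates came from separate cultures, and p-values thus cover only the spread between these libraries, which may be technical.

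A class I molecule is a heavy chain held by beta-2-microglobulin around a short peptide. Proteasomes, among them the interferon-inducible immunoproteasome, cut proteins in the cytosol, the TAP1-TAP2 transporter pumps the peptides into the endoplasmic reticulum, and tapasin bridges the transporter to empty heavy chains while peptides are loaded. NLRC5 is recruited to class I promoters through the factors of the SXY module, while interferon-stimulated response elements (ISRE), bound by interferon regulatory factors, and kappa B sites respond to interferon and inflammatory signals. HLA-B and HLA-C present peptides to T cells and engage killer receptors of natural killer cells, HLA-E presents leader peptides of other class I chains to the NKG2A receptor, and HLA-F is a weakly expressed non-classical chain.

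Promoter stretches of 3 of the genes are shown because their letters carry the elements through which class I genes are known to be driven. They were read from RefSeq on GRCh38.p14, which held an entry for 7 of the 9 genes. HLA-E and NLRC5 had none in the table used. All are 5′ to 3′ on the strand of the gene. Capitals mark matches, on either strand, to the ISRE letters GAAANNGAAA or the class I form GAANNGAAA, to CCAAT, which NF-Y binds, and to TGACG, the core of the site of CREB and ATF factors. The HLA-B stretch, chr6:31357223-31357342, minus strand, runs from 163 to 44 bases before the RefSeq start. The HLA-C stretch, chr6:31272136-31272292, minus strand, runs from 200 to 44 bases before the start. The B2M stretch, chr15:44711365-44711480, plus strand, runs from 152 to 37 bases before the start.
HLA-B: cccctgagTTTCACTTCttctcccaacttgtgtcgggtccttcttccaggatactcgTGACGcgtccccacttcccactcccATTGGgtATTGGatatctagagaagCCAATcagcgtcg
HLA-C: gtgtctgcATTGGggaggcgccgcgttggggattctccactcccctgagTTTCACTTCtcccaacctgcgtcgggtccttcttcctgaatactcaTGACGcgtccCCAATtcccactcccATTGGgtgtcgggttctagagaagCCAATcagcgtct
B2M: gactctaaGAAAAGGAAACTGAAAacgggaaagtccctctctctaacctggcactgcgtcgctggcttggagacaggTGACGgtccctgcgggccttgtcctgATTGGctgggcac

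HLA-B and HLA-C hold the same letters TTTCACTTC, then TGACG, and nearer the start an ATTGG followed by CCAAT, whereas B2M holds 2 overlapping matches to the longer ISRE form. For the other 4 genes the ISRE matches alone are shown, with 6 bases on either side where the promoter allowed it, because they are the element that all 7 promoters shared in one form or the other. In GENCODE release 29 these 4 sites lie on annotated exons of protein-coding genes (9 of the 10 bases of the HLA-F match and every base of the TAP1, TAP2 and TAPBP matches), whereas the 3 stretches above hold no such base. The HLA-F site lies at chr6:29723272-29723293, plus strand. The sites of TAP1, TAP2 and TAPBP lie at chr6:32853817-32853844, chr6:32838782-32838808 and chr6:33314079-33314104, all on the minus strand.
HLA-F: ccagagTTTCTCTTTCtctccc
TAP1: ggccgcTTTCGATTTCGCTTTCccctaa
TAP2: gctgggGAAGCGAAAGCGAAAgctgcc
TAPBP: ttggagGAAAGTGAAAGTGAAAggag

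The motif letters were chosen after these sequences had been seen, and each was searched on both strands in the 250 bases before the start. GAAANNGAAA lay in 5 of the 7 promoters (B2M, HLA-F, TAP1, TAP2 and TAPBP) and in 3.02% of all 35116 RefSeq promoters of the same length. GAANNGAAA lay in 3 of 7 (HLA-B, HLA-C and TAP2) and in 6.56% of all. All 7 held either form, against 9.08% of all promoters. CCAAT lay in 5 of 7 and in 32.0% of all, and TGACG lay in 4 of 7 (HLA-B, HLA-C, B2M and TAP2) and in 21.2% of all. The kappa B-like letters GGGNNNNNCC lay in 6 of 7 and in 54.4% of all, so common a pattern that it sets these promoters little apart. In TAP2 the matches to the 2 ISRE forms overlap. A match describes the letters of a window and is not a measured binding site.

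PRMT7, the arginine methyltransferase that was targeted, was a little lower by mean in siPRMT7, and the difference did not pass the test on the FPKM scale. Its level was 5.11 ± 0.183 FPKM in siCtrl against 4.69 ± 0.298 FPKM in siPRMT7 (SD, n = 4 each), a difference of -8.29%, with an exact two-sided permutation p of 0.0571, where the smallest possible p is 0.0286. On a TPM scale the difference was -10.7% and passed, at that smallest exact p. Libraries held 14526030 to 15724862 fragments. The library labelled siPRMT7 replicate 2 stood apart, at 28.4 on the first principal component (31.4% of the variance), with the others between -11.9 and 7.36. Its share of fragments on 88 ribosomal protein genes was 3.97%, and the other 7 libraries had 2.99 to 3.49%. Of 5 epithelial markers, 4 had a mean of at least 1 FPKM and CDH1 did not (0.454 FPKM in siCtrl), and of the prostate markers KLK3 and KLK2 were listed at 0. None of the 8 leukocyte markers, which would mark cells rich in class I, had a mean of at least 1 FPKM over the siCtrl libraries (summed level 1.14 to 1.71 FPKM in siCtrl and 1.27 to 1.85 in siPRMT7), CD3E was listed at 0, and PTPRC reached 0.194 FPKM. CD14 was the highest of them, at 0.748 FPKM in siCtrl and 1.05 in siPRMT7. Fibroblast markers summed to 8.32 to 9.79 FPKM in siCtrl and 8.54 to 9.99 in siPRMT7, and endothelial markers to 3.96 to 4.23 and 3.59 to 4.27 FPKM. In bulk RNA, a change in the number of cells that express a gene and a change in RNA per cell cannot be told apart.

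The classical heavy chains were higher in the siPRMT7 libraries by about the same proportion, and HLA-E by less. HLA-B (ENSG00000234745, GRCh38 chromosome 6, 31269491 to 31357188, minus strand) had 67.6, 71.9, 71.3 and 66.8 FPKM in siCtrl replicates 1 to 4 and 83.8, 111.6, 95.9 and 90.9 FPKM in siPRMT7 replicates 1 to 4. The groups did not overlap, and the lowest siPRMT7 library still lay well above the tight siCtrl values. The means were 69.4 ± 2.56 and 95.5 ± 11.8 FPKM (SD, n = 4 each), 37.6% higher, a difference of 0.45 on the log2(FPKM + 1) scale with a 95% interval from limma of 0.27 to 0.63. These intervals describe the spread between libraries and are not a test of genes picked on the same values.

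HLA-C (ENSG00000204525, chromosome 6, 31268749 to 31272130, minus strand) was the most abundant heavy chain of the 4, at 196, 190.0, 218 and 198 FPKM in siCtrl and 233, 298, 275 and 253 FPKM in siPRMT7. Again the groups did not overlap. The means were 200.4 ± 12.02 and 265 ± 27.6 FPKM (SD, n = 4 each), 32.1% higher, or 0.40 on the log2 scale (0.22 to 0.57).

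HLA-E (ENSG00000204592, chromosome 6, 30489467 to 30494205, plus strand) had 119.6, 122.4, 131.6 and 130.2 FPKM in siCtrl and 138, 151, 148 and 142 FPKM in siPRMT7. The groups did not overlap, but the gap between the highest siCtrl and the lowest siPRMT7 library was narrow. The means were 126 ± 5.83 and 145 ± 6.00 FPKM (SD, n = 4 each), 15.0% higher, or 0.20 on the log2 scale (0.09 to 0.31), and 0.10 when the libraries were quantile normalized.

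HLA-F (ENSG00000204642, chromosome 6, 29722775 to 29738528, plus strand) was by far the weakest chain, with 3.18, 2.71, 3.86 and 3.21 FPKM in siCtrl and 3.82, 5.24, 4.68 and 4.59 FPKM in siPRMT7. Here the groups touched: siPRMT7 replicate 1 lay just below siCtrl replicate 3. The means were 3.24 ± 0.475 and 4.58 ± 0.584 FPKM (SD, n = 4 each), 41.5% higher, or 0.40 on the log2 scale (0.17 to 0.63). These values rest on 188 to 342 fragments a library, so that counting alone gives an error of 7.29% at the lowest.

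B2M, the light chain with which class I heavy chains pair, was the most abundant of the 9 transcripts. B2M (ENSG00000166710, chromosome 15, 44711487 to 44718877, plus strand) had 529, 527, 553 and 493 FPKM in siCtrl and 569, 716, 646 and 598 FPKM in siPRMT7. No siPRMT7 library fell within the siCtrl range, although replicate 1 exceeded the highest siCtrl library only slightly. The means were 526 ± 24.4 and 632 ± 64.1 FPKM (SD, n = 4 each), 20.3% higher, or 0.26 on the log2 scale (0.09 to 0.44). With each library's share of ribosomal protein fragments as a covariate, a setting added after the data were seen, the difference was 0.16.

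**Figure D1:**
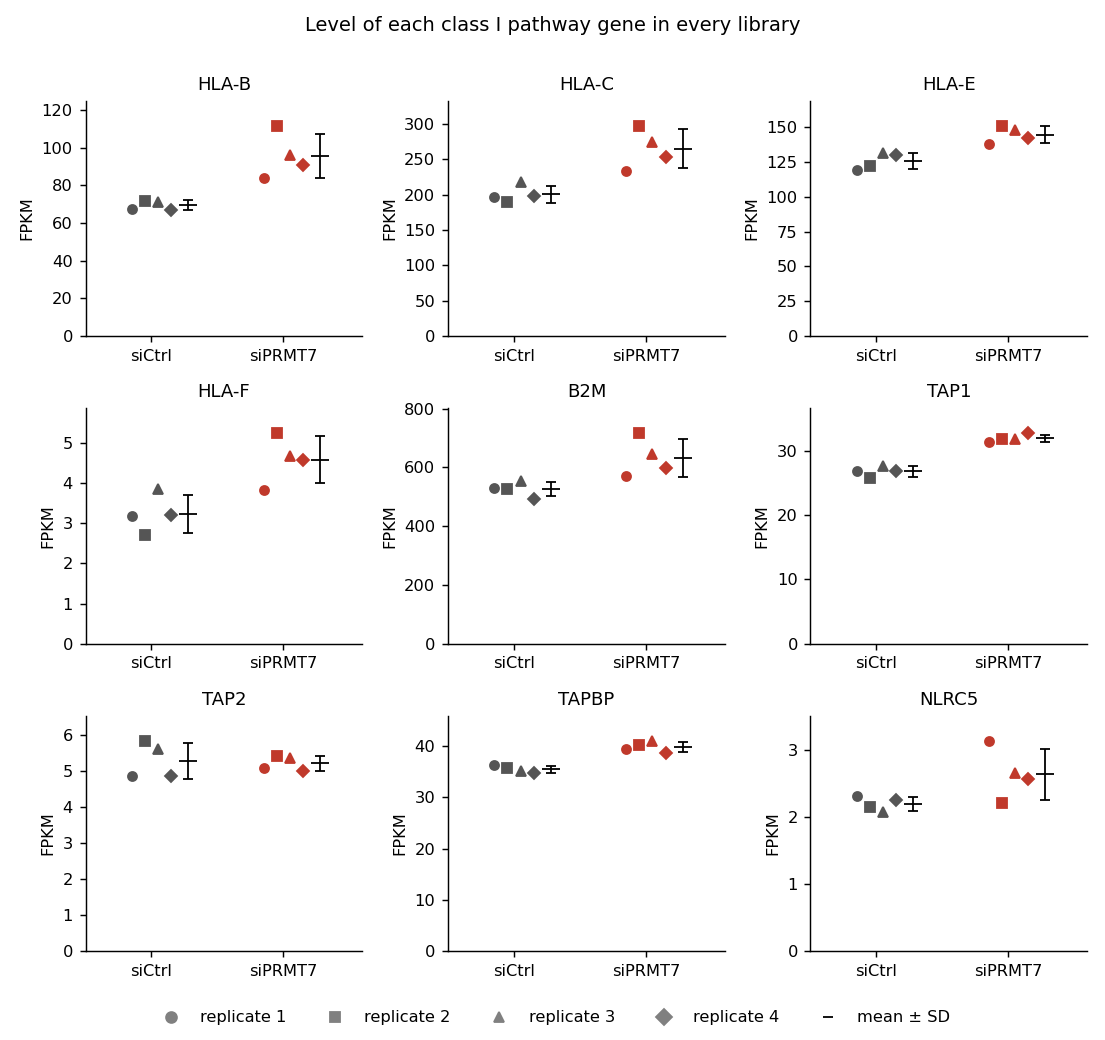
Level of each of the 9 genes in FPKM (linear axes from 0) in the 4 siCtrl libraries (grey) and the 4 siPRMT7 libraries (red), with marker shapes for replicate numbers and bars for mean ± SD. In HLA-B, HLA-C, HLA-E, B2M, TAP1 and TAPBP all siPRMT7 points lie above all siCtrl points, in HLA-F and NLRC5 the groups meet, and in TAP2 they cover the same range.

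The subunits of the peptide transporter did not behave alike. TAP1 (ENSG00000168394, chromosome 6, 32845209 to 32853978, minus strand) had 27.0, 25.7, 27.7 and 26.9 FPKM in siCtrl and 31.5, 31.9, 31.9 and 32.7 FPKM in siPRMT7. Both groups were tight and lay apart, and siPRMT7 replicate 2 was not the highest library. The means were 26.8 ± 0.822 and 32.0 ± 0.533 FPKM (SD, n = 4 each), 19.3% higher, or 0.25 on the log2 scale (0.16 to 0.33).

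TAP2 (ENSG00000204267, chromosome 6, 32821833 to 32838780, minus strand), which must pair with TAP1 to form the pump, had 4.88, 5.84, 5.61 and 4.87 FPKM in siCtrl and 5.10, 5.42, 5.38 and 5.00 FPKM in siPRMT7. All 4 siPRMT7 libraries lay inside the siCtrl range. The means were 5.30 ± 0.503 and 5.23 ± 0.203 FPKM (SD, n = 4 each), a log2 difference of -0.01 (-0.16 to 0.13), whose sign turned in 3 of the 8 fits that left out 1 library.

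Tapasin was higher in siPRMT7 by the smallest proportion of the 6 genes whose groups lay apart. TAPBP (ENSG00000231925, chromosome 6, 33299694 to 33314387, minus strand) had 36.3, 35.7, 35.1 and 34.7 FPKM in siCtrl and 39.4, 40.2, 41.0 and 38.7 FPKM in siPRMT7. The spread of the siCtrl libraries, 1.94% of their mean, was about as small as the counting error of 1.98% in the lowest library. The means were 35.4 ± 0.688 and 39.8 ± 0.981 FPKM (SD, n = 4 each), 12.3% higher, or 0.16 on the log2 scale (0.08 to 0.25).

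NLRC5, the transactivator of class I genes, was low in every library and varied most between the siPRMT7 libraries. NLRC5 (ENSG00000140853, chromosome 16, 56989485 to 57083531, plus strand) had 2.31, 2.14, 2.08 and 2.25 FPKM in siCtrl and 3.13, 2.20, 2.64 and 2.56 FPKM in siPRMT7. Replicate 2 lay within the siCtrl range and replicate 1 far above it. In the heavy chains, replicate 2 was instead the highest siPRMT7 library and replicate 1 the lowest. The means were 2.19 ± 0.103 and 2.63 ± 0.382 FPKM (SD, n = 4 each), or 0.18 on the log2 scale (-0.01 to 0.37), from 390 to 602 fragments a library. Without siPRMT7 replicate 1 the difference was 0.12, and with the ribosomal protein share as a covariate it was 0.28.

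**Figure D2:**
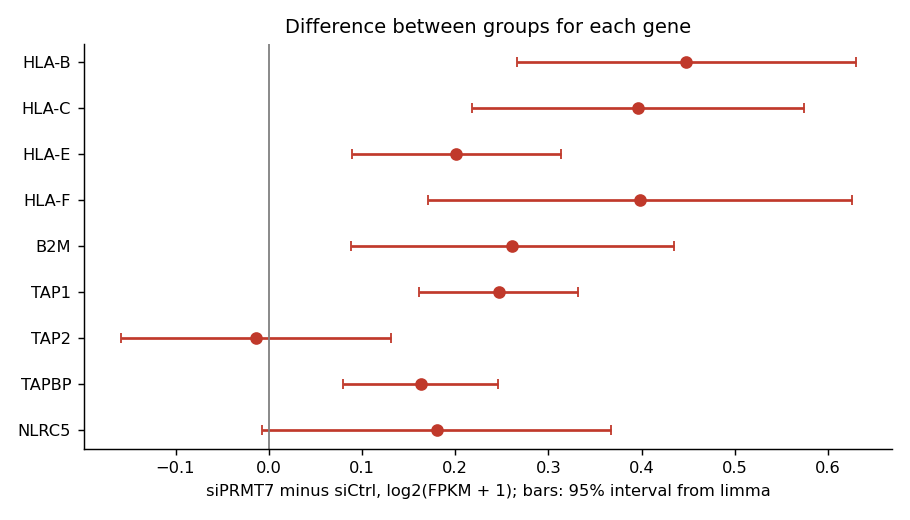
Difference between the group means of each gene, siPRMT7 minus siCtrl, on the log2(FPKM + 1) scale (dots), with the 95% interval from limma over 4 libraries a group (bars). HLA-B, HLA-C and HLA-F lie near 0.4, HLA-E, B2M, TAP1, TAPBP and NLRC5 between 0.16 and 0.26, and TAP2 at -0.01.

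By mean, 8 of the 9 genes were higher in siPRMT7, and their median log2 difference was 0.25, against -0.00 over all genes tested, of which 49.46% were higher. In limma's test adjusted by Benjamini-Hochberg over all 13436 genes, 0 of the 9 were called, where the background was 0.0149% of genes (2 genes, both higher in siPRMT7). At an unadjusted limma p under 0.05, 7 of the 9 were counted as higher (all but TAP2 and NLRC5), where the background in that direction was 7.67%. That background is itself tied to scaling: 1031 genes were higher and 738 lower in FPKM, and 762 higher and 1034 lower on a TPM scale, where the count of the 9 genes was 7 again. In 6 of the 9 genes every siPRMT7 library lay above every siCtrl library, as in 4.14% of genes tested. With limma's library weights 3 of the 9 were called (HLA-B, HLA-C and TAP1), against 0.432% of all genes. With voom on fragments rebuilt from the FPKM values 1 was called (HLA-B), against 0.0968%, and with the ribosomal protein share as a covariate 1 (HLA-B), against 0.0595%. None of these counts stands as evidence about the 9 genes, since they were chosen on this comparison.

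Within the siPRMT7 group the genes fell into sets by the order of the libraries. HLA-B, HLA-C, HLA-E, HLA-F and B2M all had replicate 2 highest, then 3, 4 and 1. HLA-B lay 20.7, 60.7, 38.1 and 30.9% above its siCtrl mean in siPRMT7 replicates 1 to 4. B2M lay 8.32, 36.2, 22.8 and 13.7% above, and HLA-E 9.40, 20.04, 17.7 and 13.03% above. NLRC5 had the reverse ends, with 42.5% in replicate 1 and 0.204% in replicate 2. TAP1 stayed between 17.4 and 22.1% in all 4 libraries and TAPBP between 9.17 and 15.5%. The ribosomal protein share moved in the order of the heavy chains, at 2.99, 3.97, 3.49 and 3.21% of fragments in siPRMT7 replicates 1 to 4. With that share as a covariate the log2 differences were 0.33 for HLA-B, 0.28 for HLA-C, 0.16 for HLA-E and 0.28 for HLA-F. Each was smaller than without the covariate. The part of this share in their levels was not tested beyond the covariate fit. Without siPRMT7 replicate 2 the log2 differences were 0.37 for HLA-B, 0.34 for HLA-C, 0.20 for B2M, 0.25 for TAP1 and 0.24 for NLRC5.

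**Figure D3:**
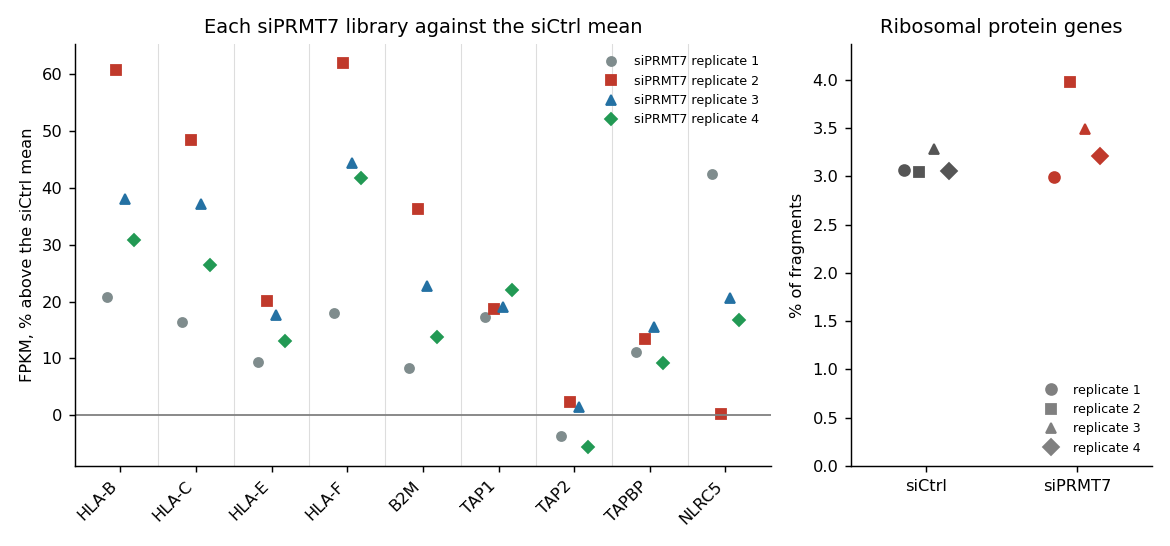
Left, FPKM of the 9 genes in each siPRMT7 library as percent above or below the siCtrl mean of the same gene, with 1 marker a library; right, percent of fragments on 88 ribosomal protein genes in all 8 libraries, on an axis from 0. Replicate 2 (squares) is highest in the heavy chains and B2M and lies at 0.204% in NLRC5, while the 4 markers of TAP1 lie together.

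The heavy chain level relative to B2M was a little higher by mean in siPRMT7, and the groups overlapped. The summed level of the 4 heavy chains was 399 ± 17.8 FPKM in siCtrl and 509.8 ± 45.6 FPKM in siPRMT7 (SD, n = 4 each). Divided by B2M it was 0.730, 0.734, 0.768 and 0.807 in siCtrl and 0.806, 0.790, 0.811 and 0.822 in siPRMT7. The siPRMT7 ratios fell in a narrow band, with 2 of them above every siCtrl ratio. Of the siCtrl libraries, only replicate 4 lay within that band, and the others lay below it. The mean ratios were 0.760 ± 0.0355 and 0.807 ± 0.0134 (SD, n = 4 each), a log2 difference of 0.09.

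HLA-E was a smaller part of the summed level of these 4 heavy chains in siPRMT7, a sum that does not cover every class I heavy chain. It made up 30.9, 31.6, 30.99 and 32.7% of the summed heavy chain FPKM in siCtrl and 30.04, 26.7, 28.3 and 28.98% in siPRMT7, so that every siPRMT7 library lay below every siCtrl library. HLA-C took 50.2 ± 0.998% in siCtrl and 51.9 ± 0.822% in siPRMT7, and HLA-B took 17.4 ± 0.841% and 18.7 ± 0.693% (SD, n = 4 each). HLA-F made up under 1% in each library. The ratio of HLA-E to HLA-B was 1.82 ± 0.106 in siCtrl and 1.53 ± 0.123 in siPRMT7.

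TAP1 was higher relative to TAP2 in every siPRMT7 library. The ratio of TAP1 to TAP2 was 5.53, 4.40, 4.94 and 5.53 in siCtrl and 6.17, 5.88, 5.94 and 6.54 in siPRMT7, with no overlap. The means were 5.10 ± 0.541 and 6.13 ± 0.301 (SD, n = 4 each), a log2 difference of 0.27, and 0.20 to 0.31 when each library was left out in turn. The ratio of the heavy chains to NLRC5 was 182 ± 15.5 in siCtrl and 198 ± 45.4 in siPRMT7, where replicate 1 had 147 and replicate 2 had 257.

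**Figure D4:**
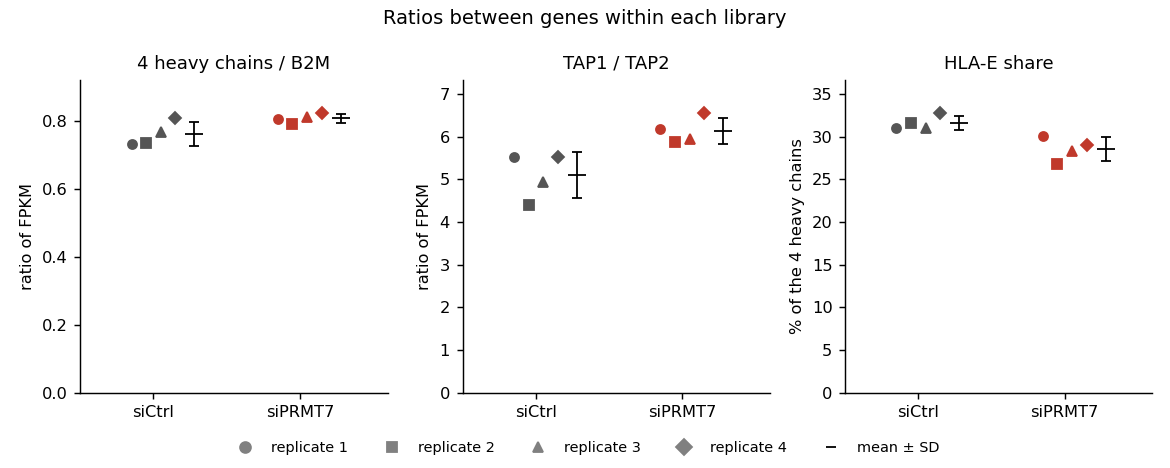
Ratios within each library (axes from 0), for siCtrl (grey) and siPRMT7 (red) with mean ± SD: summed FPKM of HLA-B, HLA-C, HLA-E and HLA-F over B2M, TAP1 over TAP2, and HLA-E as percent of the 4 heavy chains. The groups meet in the first ratio (0.760 and 0.807 on average), TAP1 over TAP2 is higher in all siPRMT7 libraries, and the HLA-E share is lower in all of them.

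Some of these genes share sequence with others, which bears on how fragments could be assigned. The strand setting of the counting was not given in the sources used here. In GENCODE release 29, HLA-B shared 18.9% of its 3051 exonic bases with other genes, nearly all with a pseudogene on the opposite strand (AL671883.2, at most 0.133 FPKM), and 35 bases with HLA-C. HLA-F shared 28.5% of 4342 bases with genes on the opposite strand, the highest of them HLA-F-AS1 at 1.16 to 2.03 FPKM. TAP1 shared 9.49% of 4805 bases with PSMB8-AS1, which had 0.549 to 1.22 FPKM. TAP2 shared 32.3% of 6390 bases with AL669918.1, a coding gene on the same strand that reached only 0.0246 FPKM, so the TAP2 level is uncertain where fragments from shared exons were dropped. HLA-E, B2M, TAPBP and NLRC5 shared no exonic base. Windows of 100 bases of a transcript that occurred letter for letter in another gene made up 30.3% in TAP2, 15.3% in HLA-F, 12.9% in HLA-B, 7.26% in TAP1, 0.491% in HLA-E and 0.126% in HLA-C, and 0 in B2M, TAPBP and NLRC5. In windows of 50 bases the shares were 31.3, 21.6, 17.8, 9.78, 4.87 and 5.70% in the first 6 of these genes, 4.73% in TAPBP and 0 in B2M and NLRC5.

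The other genes of class I presentation were taken from 8 lists of 75 genes, of which 56 were tested. None was called in limma's test over all genes (lowest adjusted p 0.182), where the background was 0.0149% of genes tested. At that background, a count of 0 called says little about the 56 genes or about any single list below. At an unadjusted p under 0.05, 13 of the 56 were counted as higher and 4 as lower, where the backgrounds were 7.67% and 5.49% of all genes tested. On the TPM scale 9 were counted as higher and 4 as lower, where the background was 762 higher and 1034 lower of 13436 genes. The lists were written with earlier results known, so their counts are a description too. By value 34 of the 56 were higher, and their median log2 difference was 0.03, close to the -0.00 of all genes tested.

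Of the other class I heavy chain genes and pseudogenes, 3 of 7 were tested and 0 called, with a median log2 difference of 0.32. HLA-H, a pseudogene, had 1.62 ± 0.418 and 2.26 ± 0.378 FPKM (limma adjusted p 0.364) from 16 to 42 fragments a library. HLA-V, another pseudogene, had 3.40 and 3.45 FPKM. HLA-G, the non-classical chain of the placenta, reached 0.0709 FPKM at most, from 2 fragments, below the floor of 3 fragments. HLA-J had 0.640 and 0.434 FPKM, HLA-K 0.0323 and 0.127 FPKM, and HLA-L 0.832 and 0.826 FPKM in siCtrl and siPRMT7. The HLA-K values rest on only 0 to 4 fragments a library, around that floor, and those of HLA-J on 10 to 27.

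Peptide supply and trimming genes were all tested, 11 of 11, with 0 called, 7 higher and 4 lower by value and a median of 0.03. PSMB9, an immunoproteasome subunit whose gene lies beside TAP1, had 3.20, 3.68, 4.06 and 3.14 FPKM in siCtrl and 4.84, 6.13, 4.77 and 4.50 FPKM in siPRMT7, with no overlap. Its log2 difference was 0.42 (limma adjusted p 0.189). PSMB8, a second immunoproteasome subunit, had 19.0 ± 0.722 and 24.1 ± 4.30 FPKM (SD, n = 4 each; limma adjusted p 0.286), without overlap and with 30.1 FPKM in siPRMT7 replicate 2. TPP2, a cytosolic peptidase, had 6.92 and 6.25 FPKM (limma adjusted p 0.329), with every siPRMT7 library below every siCtrl library.

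Folding and quality control genes of the endoplasmic reticulum gave 0 of 11 called, 6 higher and 5 lower by value, with a median of 0.03. SEC61G, a subunit of the translocation channel, had 39.0 and 47.5 FPKM (limma adjusted p 0.291), and SEC61A1, the channel itself, had 73.2 and 70.3 FPKM. UGGT1, the glucosyltransferase that senses misfolded glycoproteins, had 12.8 and 11.1 FPKM (limma adjusted p 0.334). Of the class I-like chains that pair with B2M, FCGRT, the neonatal Fc receptor chain, had 15.2 and 18.5 FPKM (limma adjusted p 0.303) and MR1, which presents vitamin metabolites, had 1.59 and 1.56 FPKM. HFE and CD1D did not pass the filter.

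The class I-like ligands of the NKG2D receptor, which do not need B2M, gave 0 of 7 called, 5 higher and 2 lower by value, with a median of 0.08. ULBP2 had 7.20 ± 0.803 and 8.92 ± 0.633 FPKM (SD, n = 4 each), with no overlap (limma adjusted p 0.222). RAET1L had 2.34 and 2.73 FPKM, also without overlap (limma adjusted p 0.359), and RAET1G had 0.966 and 1.23 FPKM (limma adjusted p 0.476).

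The factors that bind the SXY module together with NLRC5 gave 0 of 8 called, 3 higher and 5 lower by value, with a median of -0.03. NFYA, a subunit of the CCAAT-binding factor, had 19.3 and 17.5 FPKM (limma adjusted p 0.276), with every siPRMT7 library below every siCtrl library. ATF1 had 15.6 and 14.2 FPKM (limma adjusted p 0.317), and RFXANK, a subunit of the RFX complex, had 9.83 and 11.6 FPKM (limma adjusted p 0.325). Of the interferon and NF-kB factors, 13 were tested and 0 called, with 8 higher and 5 lower by value and a median of 0.02. IRF1, which binds ISRE letters, had 5.72, 5.62, 5.53 and 5.36 FPKM in siCtrl and 6.72, 7.55, 6.56 and 6.39 FPKM in siPRMT7, with no overlap (log2 difference 0.25, limma adjusted p 0.182). STAT2, a subunit of the factor that binds ISRE letters after type I interferon, had 36.1 and 41.3 FPKM (limma adjusted p 0.225), also without overlap.

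Class II was all but absent. Of 12 class II genes only HLA-DMA, a chain of the class II peptide editor, was tested, at 1.28 and 1.33 FPKM. The other 11 reached 0.375 FPKM at most, CIITA, the class II transactivator and a relative of NLRC5, reached 0.0797 FPKM, and HLA-DRB1 was listed at 0.

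**Figure D5:**
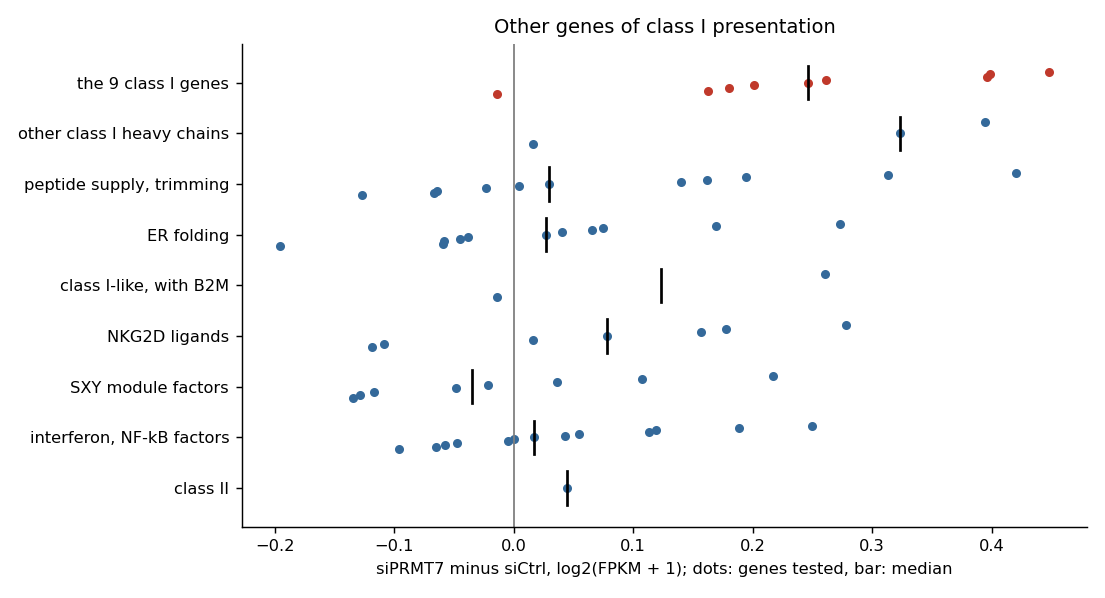
Difference between the group means, siPRMT7 minus siCtrl, on the log2(FPKM + 1) scale for the 9 genes (red) and the tested genes of the 8 other lists (blue), with a bar for the median of each list. The median is 0.25 for the 9 genes and 0.32 for the other heavy chains, and between -0.03 and 0.12 for the remaining lists.

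The genes whose pattern was most like that of the 9 were ranked by Pearson's r over the 8 libraries, between log2(FPKM + 1) and the mean z-score of the 9 genes, among 10799 protein-coding genes. All points share these libraries and their split into groups, so r is a description. OGFR, the opioid growth factor receptor, led with r of 0.992. It had 28.2 to 30.9 FPKM in siCtrl and 34.4 to 37.6 FPKM in siPRMT7. IER5L followed (r of 0.991), with 15.5 to 17.1 FPKM in siCtrl and 19.0 to 21.4 FPKM in siPRMT7. UBE2L6, the conjugating enzyme of ISG15, had r of 0.986, with 92.8 to 99.7 FPKM in siCtrl and 110.5 to 117 FPKM in siPRMT7. CITED2, a transcriptional coregulator, had r of 0.985 and 77.0 to 83.6 against 90.8 to 106 FPKM, and HRASLS2, a phospholipid-modifying enzyme, r of 0.984 and 8.34 to 10.2 against 11.5 to 14.6 FPKM. In each of the 5 genes siPRMT7 replicate 2 was the highest library.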

How the data were processed

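The deposited table holds FPKM values that the authors computed per gene and library. Per the submitters' processing notes, cutadapt 2.5, HISAT2 2.1.0 and featureCounts 1.6.3 were used. The notes name a mouse build, but all 58735 genes lie at GENCODE release 29 positions on human GRCh38. Fragments were rebuilt as FPKM times gene length over a step per library, which came out whole (within 0.01 fragments) for 100% of values above 0. A floor of 3 fragments was 0.191 to 0.207 ppm. Floors and errors from fragments cover counting error only, whereas the limma intervals describe the spread between libraries.

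Groups came from the sample titles. Genes at FPKM 1 or above in 4 or more of the 8 libraries, 13436 in all, were fitted on log2(FPKM + 1) by limma (version 3.58.1, R 4.3.3; variance trend, two-sided, Benjamini-Hochberg over all genes tested, threshold 0.05). This scale understates the change of low genes. PRMT7 was tested over 70 exact assignments. Scripts ran in Python 3.11.15. The fit was tested on simulated data.

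The 9 genes and all lists were chosen with earlier results of these data known. The rule for named genes took the 9 genes, PRMT7, all other class I heavy chain genes, up to 3 genes of smallest p from each other list with any that passed, and the 5 genes most like the 9. Some genes that the rule took are not reported here. CDH1, CD14 and other markers were named from the marker lists. The main fit used no count model because the table holds FPKM. Alternatives were other pseudocounts, filters, scalings and variance models, a replicate block, voom on rebuilt fragments and leaving out each library. A covariate for the ribosomal protein share and a fit restricted to protein-coding genes were added after the data were seen.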

Additional observations from a re-analysis of the deposited data

Results flagged for a closer look

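The share of fragments on 88 ribosomal protein genes was 3.29% in siCtrl replicate 3, against 3.05 to 3.06% in the other siCtrl libraries, which set that library far from its group. Of 34 groups of 4 libraries checked in this way, 1 stood out, and about 1 in 20 would do so where nothing differs. In the same library HLA-C, HLA-E, HLA-F, B2M and TAP1 had their highest siCtrl values.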

How the results depend on the processing

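Each of the 9 genes was fitted under 20 or 21 alternatives, and 179 of the 187 differences kept their direction and their side of the threshold. The exceptions were TAP2, whose log2 difference turned to 0.0269 without siCtrl replicate 2, 0.0104 without siCtrl replicate 3 and 0.0032 without siPRMT7 replicate 4 (-0.0472 to 0.0269 over the libraries left out), and 5 calls gained. The number of the 9 genes called, 0 as reported, was 3 under library weights (HLA-B, HLA-C and TAP1), 1 under voom (HLA-B) and 1 with the ribosomal protein covariate (HLA-B). A filter at FPKM 5 left 7 of the 9 tested, without HLA-F and NLRC5. Changing the filter, dropping the variance trend or estimating variance robustly cannot alter a gene's log2 difference. Neither can the replicate block or the restriction to protein-coding genes. In those fits the direction was fixed beforehand, and only the side of the threshold could change.

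The number of genes called by limma, 2 as reported, was 1 with a pseudocount of 0.1, 5 with no filter (3 higher and 2 lower in siPRMT7), 1 with the filter at FPKM 5, 1 after quantile normalization, 58 with library weights (46 higher and 12 lower), 13 with voom (12 higher and 1 lower), 8 with the ribosomal protein covariate, 11 among protein-coding genes alone, and 0 to 2 when each library was left out. PRMT7 was 10.7% lower on a TPM scale (-10.7%, exact permutation p 0.0286, which passes 0.05), where the median log2 difference of all genes was -0.04. The causes of these changes were not tested.

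Replicate numbers did not pair the libraries: same-numbered libraries had correlations of -0.031 to 0.061, 0 of 4 over 0.1, and 0 correlated best with its own number. With a replicate block, 0 genes were called, 1000 being higher and 646 lower at an unadjusted p under 0.05. HLA-F, TAP2 and NLRC5, at 188 to 602 fragments over the 3 genes, had the largest counting error.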
